A study of Arabidopsis thaliana with 12 samples.

Results

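The data described here are the RNA-seq counts of spt16-2, an Arabidopsis thaliana mutant in one subunit of the histone chaperone FACT, set against those of the wild type Col-0. The rule took 3 spt16-2 and 3 Col-0 libraries, 6 of the 12 libraries of the study, and every gene of the count table. Of 32833 genes in the table, 20471 held enough counts to be tested. The other 6 libraries were 3 of ssrp1-2, a mutant in the other FACT subunit, and 3 of nrpb2-3, a mutant in a subunit of RNA polymerase II. All 12 libraries came from seedlings harvested 12 days after germination, after 4 days of stratification at 4 °C and growth on soil in long days at about 21 °C. The labels give the mutants by allele name only and do not describe the lesions, and they name no treatment. Whether the replicates were grown or sampled separately is not in the labels, so p-values here measure only library-to-library spread, which may be technical.

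FACT is a heterodimer of SPT16 and SSRP1 that loosens histones from DNA ahead of a transcribing polymerase and helps to put them back behind it. In Arabidopsis, mutants in either subunit are known for early flowering, altered leaf and flower form and, in some genes, transcription that starts at cryptic sites within the gene body. SPT16 contacts H2A-H2B dimers and SSRP1 carries the DNA-binding HMG box.

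Each of the 6 libraries held 39483328 to 43431691 counts. Nuclear rRNA genes took 1.23% of counts in Col-0 replicate 1 and 0.225% to 0.468% in the other 5 libraries. Nuclear photosynthesis genes took 17.9% of counts in the library labelled spt16-2 replicate 2 and 20.8% to 24.4% in the other 5 libraries. The leaf and epidermis markers were all detected, with 9 of 9 tested. Of 8 pollen and anther markers 2 were tested, and VGD1, MS1 and A9 had 0 counts in all 6 libraries. Of 12 root markers 7 were tested, and PLT1, RHD6 and EXPA7 had 0 counts in all 6 libraries. In bulk seedling RNA fewer cells of a type and less RNA per cell cannot be told apart.

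SPT16 (AT4G10710), the mutated gene, stood at 44.9, 62.0 and 54.6 CPM (counts scaled to a common library size by TMM) in Col-0 and at 27.8, 55.4 and 30.01 in spt16-2. Replicates 1 and 3 of spt16-2 lay below every Col-0 library, and replicate 2 lay within the Col-0 range. The log2 fold change of −0.51 ± 0.22 (SE, n = 3 per group) did not pass edgeR's quasi-likelihood test (adjusted p = 0.536, Benjamini-Hochberg over all tested genes, as for every adjusted p here). With 1 library left out the change was −0.90 without spt16-2 replicate 2 (adjusted p = 0.0294, edgeR) and −0.63 to −0.33 without any other (adjusted p 0.513 to 0.788). Leaving out the library with the highest spt16-2 value had to enlarge the fall, so the first of these is a description. Since its SPT16 level lies among those of Col-0, that library is called by its label below. When the test was run without it, 36 genes were called, and the library left out lay beyond all Col-0 libraries, on the side of the other spt16-2 libraries, in 35 of them. The gene that made the exception was SPT16. Over all tested genes the library lay on that side in 37.8%.

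SSRP1 (AT3G28730), the partner subunit, stood at 38.9, 48.4 and 44.2 CPM in Col-0 and at 49.8, 57.1 and 49.1 in spt16-2. All spt16-2 libraries were above all Col-0 libraries, and the difference of 0.25 on the log2 scale did not pass the edgeR test (adjusted p = 0.583). None of the other transcript elongation factors on the same list was called either (0 of 15 tested members, median log2 fold change 0.06).

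The change in spt16-2 was small in number and mostly upward. Of 20471 genes tested, 86 (0.42%) were called at an adjusted p under 0.05, 77 of them higher in spt16-2 (0.376%) and 9 lower (0.044%). Of these, 74 were at least 2-fold higher and 5 at least 2-fold lower. At an unadjusted p under 0.05 there were 1679 genes (8.2%), 1000 higher and 679 lower. In all 86 called genes the 3 spt16-2 libraries did not overlap the 3 Col-0 libraries, which also held for 7.38% of all tested genes in the higher direction and 5.77% in the lower. With the library labelled spt16-2 replicate 2 left out, 35 genes were called higher and 1, SPT16, lower. With both that library and Col-0 replicate 1 left out, 17 were higher and 2 lower.

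Most of the genes that rose were at low levels in Col-0. Per kilobase of annotated exon, the 77 genes had a median level of 0.197 CPM in Col-0 and 1.43 in spt16-2, against medians of 6.02 and 5.98 CPM over 20331 tested genes with an exon length. In 10 of the 77 the Col-0 libraries held 0 counts and in 10 more they held 1 to 3. A gene this low in Col-0 passed the filter on low counts only through a mutant group where it was higher, so the number of such genes is set in part by the filter. Among 10765 genes at a Col-0 mean of 10 CPM or more, 1 rose and 6 fell. The one that rose was Hsp70-2 (AT5G02490), a cytosolic Hsp70 chaperone, at 22.5, 28 and 27.0 CPM in Col-0 and 45.1, 51.4 and 42.4 in spt16-2, a log2 change of 0.84 ± 0.12 (adjusted p = 0.00766, edgeR). Hsp70-2 kept its call with each of the 6 libraries left out in turn. It lost the call with the 6 libraries compared alone. It also lost it without both Col-0 replicate 1 and the library labelled spt16-2 replicate 2. The 9 lower genes had a median of 16.1 CPM in Col-0 before division by length.

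**Figure D1:**
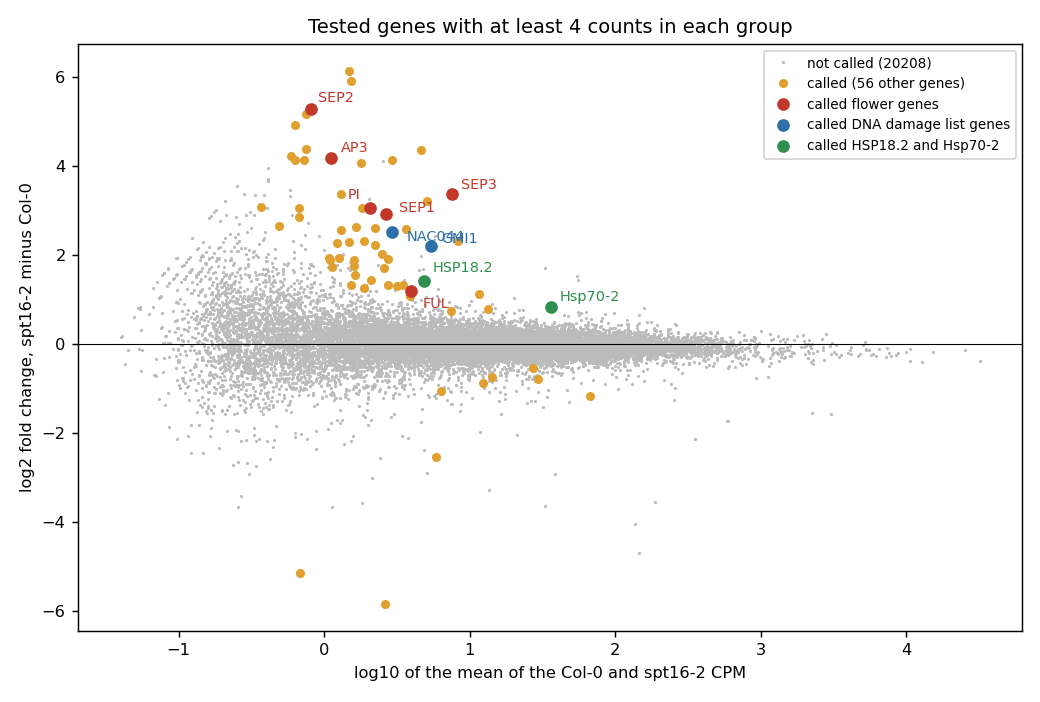
Log2 fold change of spt16-2 over Col-0 (y) against the log10 of the mean CPM of both groups (x), 1 point per tested gene with at least 4 counts in each group (20274 genes, 66 of them called). Coloured points are called genes, and most of them lie above 0 at the left, where CPM is low.

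The clearest group was the floral organ identity genes, mostly MADS-box transcription factors, that specify sepals, petals, stamens and carpels. Of 9 tested members 5 rose, SEP1, SEP2, SEP3, AP3 and PI, and none fell, against 0.376% of all tested genes called higher. By Col-0 mean, 7.52% of tested genes under 0.1 CPM were called, where SEP2 lay. The share was 1.08% at 0.1 to 1 CPM, where SEP1, AP3 and PI lay, and 0.302% at 1 to 10 CPM, where SEP3 lay. This list, like the others, was chosen with earlier results of these data known. The list had a median log2 change of 2.92, against −0.00038 over all tested genes. The same 5 were called without the library labelled spt16-2 replicate 2 (median 2.88). SEP3 (AT1G24260), a cofactor that joins the floral MADS complexes, stood at 1.90, 1.01 and 1.1 CPM in Col-0 and 15.8, 11.9 and 14 in spt16-2. Every spt16-2 library was several times above every Col-0 library, a 10.4-fold difference (log2 3.38 ± 0.29, adjusted p = 0.000153, edgeR).

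SEP2 (AT3G02310), a close relative with overlapping function, stood at 0.0878, 0.0289 and 0 CPM in Col-0 and 1.5, 1.42 and 1.85 in spt16-2. The Col-0 libraries held 4 counts in all and the spt16-2 libraries 185 (log2 5.28 ± 0.66, adjusted p = 0.00315, edgeR). SEP1 (AT5G15800) stood at 0.468, 0.779 and 0.618 CPM in Col-0 and 5.21, 4.98 and 3.99 in spt16-2, again with no overlap (log2 2.92 ± 0.41, adjusted p = 0.00577). SEP1 overlaps a tested gene, AT5G15790, in the annotation, and without a stated strand setting their reads cannot be told apart. AP3 (AT3G54340) and PI (AT5G20240) act together in petals and stamens. AP3 stood at 0.234, 0 and 0.107 CPM in Col-0 and 2.19, 2.43 and 1.77 in spt16-2 (log2 4.2 ± 0.58, adjusted p = 0.00492). PI stood at 0.731, 0.260 and 0.322 CPM in Col-0 and 3.71, 3.92 and 3.35 in spt16-2 (log2 3.06 ± 0.40, adjusted p = 0.00393). Both were separated from Col-0 in every library. All 5 genes kept their calls with each of the 6 libraries left out in turn, and without both Col-0 replicate 1 and the library labelled spt16-2 replicate 2 the call of SEP1 was lost.

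The other organ identity genes did not pass the test. AG, which specifies stamens and carpels, stood at 1.93, 0.808 and 1.83 CPM in Col-0 and 2.12, 2.04 and 2.2 in spt16-2 (log2 0.47 ± 0.45, adjusted p = 0.866, edgeR). SHP1 had a log2 change of 1.31 (adjusted p = 0.535), SEP4 of −0.23 (adjusted p = 0.802) and AP2 of 0.05 (adjusted p = 0.958). The carpel and ovule genes SHP2 and STK had too few counts to be tested, at most 0.123 CPM in any of the 6 libraries. The summed level of the pollen and anther markers was 15.6 to 21.4 CPM in Col-0 and 10.9 to 15.5 in spt16-2, and most of it came from TPD1.

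The floral promoters, which act before the organ identity genes, had a median of 0.68. Of 11 tested members 1 rose (against 0.376% of all tested genes) and none fell. It was FUL (AT5G60910), a MADS-box gene of the inflorescence meristem, at 2.22, 2.31 and 2.74 CPM in Col-0 and 5.18, 6.25 and 5.14 in spt16-2, with no overlap (log2 1.19 ± 0.22, adjusted p = 0.03, edgeR). FUL was not called when any 1 of the 6 libraries was left out (adjusted p 0.0696 to 0.149). AP1, which marks the floral meristem, stood at 0.585, 0.433 and 0.645 CPM in Col-0 and 2.22, 1.99 and 1.23 in spt16-2, separated in every library but not called (log2 1.70 ± 0.35, adjusted p = 0.0533). SPL9, a promoter of the adult phase, stood at 9.48, 9.90 and 10.3 CPM in Col-0 and 14.8, 13.3 and 14.9 in spt16-2, also without overlap and not called (log2 0.53 ± 0.12, adjusted p = 0.11).

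FT, the mobile flowering signal from leaves, stood at 2.96, 1.76 and 4.03 CPM in Col-0 and 2.37, 2.28 and 4.31 in spt16-2, overlapping groups with a log2 change of 0.03 ± 0.46 (adjusted p = 0.999, edgeR). SOC1, an integrator downstream of FT, overlapped as well (−0.16 ± 0.24, adjusted p = 0.931). FLC, the MADS-box repressor of both, was low in these seedlings, at 0.0585, 1.01 and 0.618 CPM in Col-0 and 0.155, 0.343 and 0.241 in spt16-2, overlapping groups that were not called (−1.18 ± 0.84, adjusted p = 0.798). None of the 7 FLC clade repressors was called (median −0.35). Of the 17 tested regulators of FLC none was called (median 0.06). SPL3 and SPL15 were listed at 0 counts in all 6 libraries. How reads were assigned to genes is not given, so a gene listed at 0 in every library may not have been counted, here and for the other genes so listed.

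Among shoot meristem and boundary genes 0 of 8 tested members were called, and the list median was 1.0. STM, the homeobox gene that keeps meristem cells undifferentiated, came nearest, at 2.37, 4.39 and 4.62 CPM in Col-0 and 7.30, 9.17 and 7.72 in spt16-2. Its groups did not overlap (log2 1.09 ± 0.22, adjusted p = 0.0517, edgeR), and with replicate numbers as a block it was called (1.09, adjusted p = 0.0178). WUS and CLV3 had too few counts to be tested. SWEET10, a sucrose transporter gene, was called higher at 0.790, 0.808 and 0.752 CPM in Col-0 and 4.41, 3.48 and 3.08 in spt16-2 (log2 2.22 ± 0.29, adjusted p = 0.00393), and was picked out here after its values were seen.

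**Figure D2:**
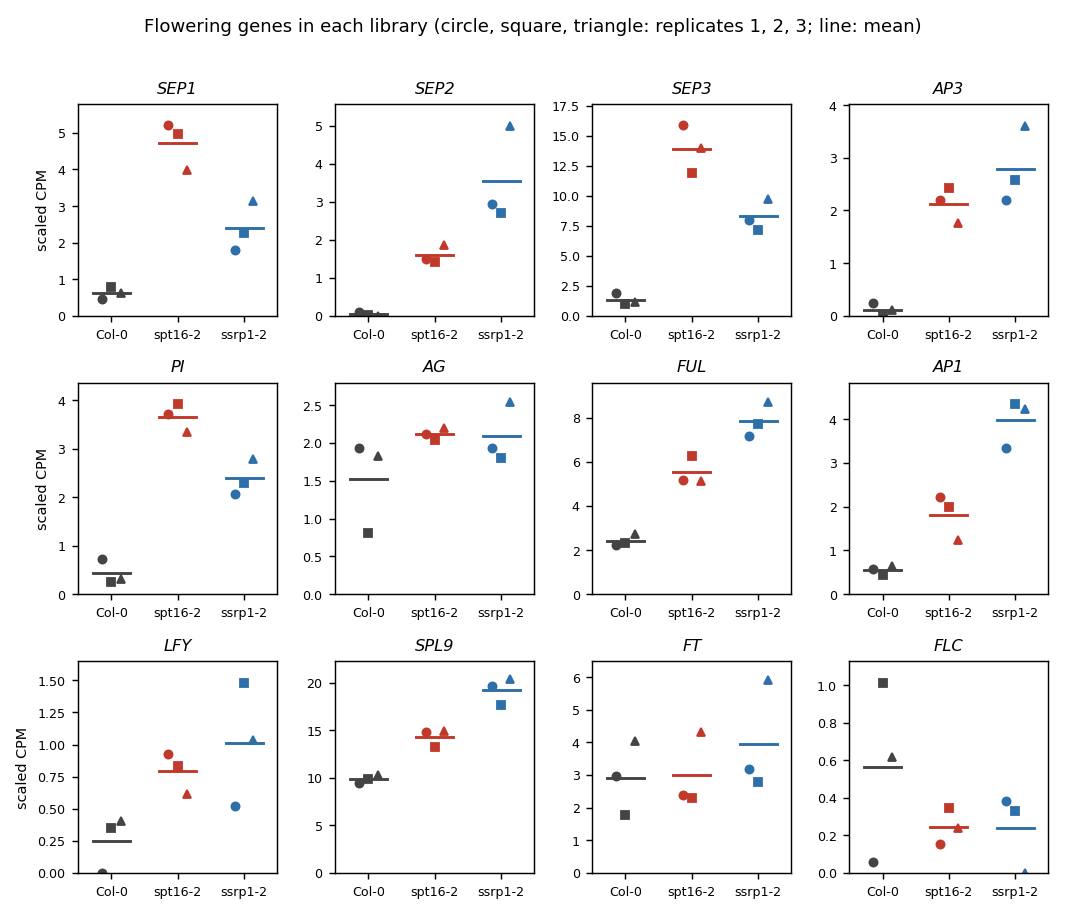
Scaled CPM (y, from 0) of 12 flowering genes in each library of Col-0, spt16-2 and ssrp1-2 (x), with marker shape for the replicate number and a line at the mean of 3 libraries. In spt16-2, SEP1, SEP2, SEP3, AP3 and PI lie above every Col-0 library, while FT and FLC overlap it.

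A further group was the DNA damage response, in which the NAC factor SOG1 switches on repair genes, cell cycle inhibitors and the NAC factors NAC044 and NAC085. Of 12 tested list members 2 rose, NAC044 and GMI1, and none fell, against 0.376% of all tested genes called higher. At a Col-0 mean of 0.1 to 1 CPM, as for NAC044, 1.08% of tested genes were called, and at 1 to 10 CPM, as for GMI1, 0.302%. This list too was chosen with earlier results of these data known. The list median was 0.50, and in 8 of the 12 the spt16-2 libraries lay above every Col-0 library, as in 7.38% of all tested genes. The same count of calls was found without the library labelled spt16-2 replicate 2 (2 of 12, median 0.47). NAC044 (AT3G01600), which holds back the cell cycle after DNA damage, stood at 0.966, 0.693 and 0.940 CPM in Col-0 and 4.2, 5.54 and 5.20 in spt16-2. All spt16-2 libraries exceeded all Col-0 libraries by 5.73-fold on average (log2 2.52 ± 0.23, adjusted p = 0.000225, edgeR).

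GMI1 (AT5G24280), a gene induced by DNA-breaking agents and involved in homologous recombination, stood at 1.05, 2.40 and 2.36 CPM in Col-0 and 7.02, 11.9 and 7.80 in spt16-2, with no overlap (log2 2.2 ± 0.29, adjusted p = 0.00393, edgeR). NAC085 stood at 0.0585, 0.0289 and 0.0537 CPM in Col-0 and 0.361, 0.540 and 0.643 in spt16-2, separated but not called (3.37 ± 0.79, adjusted p = 0.112). SMR7, a cyclin-dependent kinase inhibitor, was likewise separated but not called (0.468, 0.231 and 0.215 CPM in Col-0 against 1.01, 0.785 and 1.02 in spt16-2, adjusted p = 0.258). SOG1 itself overlapped between the groups (log2 0.08, adjusted p = 0.953), and SMR5 had 0 counts in all 6 libraries.

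The 250 bases before the annotated start of each gene, read from the TAIR10.1 genome, were searched on both strands for a few short motifs. The search was chosen after the calls were known. CTTNNNNNNNAAG, the palindrome that SOG1 is known to bind, was in 21 of the 77 windows of higher genes (27.3%) and in 1822 of 20330 windows of tested genes (8.96%). A stricter form of the same letters, CTTGNNNNNCAAG, was in 8 of 77 (10.4%) and in 111 of 20330 (0.546%). Its relative CTTGNNNNNCACG was in 3 of 77 (3.9%) and in 74 of 20330 (0.364%). Every CTTGNNNNNCAAG is also counted as CTTNNNNNNNAAG. These stricter forms are known in Arabidopsis upstream of genes that answer mitochondrial dysfunction, where the NAC factors ANAC013 and ANAC017 bind them. Either stricter form was in 10 of the 77 windows (13%), against 0.895% of all tested genes and 1.97% of the 2993 tested genes under 1 CPM in Col-0. Neither GMI1 nor AT5G60250, the called gene with the smallest p, held any of these forms.

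Windows of 3 called genes that carry CTTGNNNNNCAAG sites (in capitals) are printed as examples. Each runs 5′ to 3′ on the strand of its gene and ends at the base before the annotated start. No annotated gene lies in these windows. They are chr3:228825-229074, plus strand, for NAC044, chr2:1339469-1339718, minus strand, for the MATE transporter gene AT2G04050, and chr1:6183807-6184056, minus strand, for the threonyl-tRNA synthetase gene AT1G17960, all in TAIR10.1.
NAC044: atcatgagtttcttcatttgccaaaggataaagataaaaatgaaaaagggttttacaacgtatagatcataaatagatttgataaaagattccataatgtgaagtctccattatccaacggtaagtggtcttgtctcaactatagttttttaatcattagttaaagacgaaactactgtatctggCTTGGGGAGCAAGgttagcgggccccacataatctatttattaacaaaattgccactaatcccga
AT2G04050: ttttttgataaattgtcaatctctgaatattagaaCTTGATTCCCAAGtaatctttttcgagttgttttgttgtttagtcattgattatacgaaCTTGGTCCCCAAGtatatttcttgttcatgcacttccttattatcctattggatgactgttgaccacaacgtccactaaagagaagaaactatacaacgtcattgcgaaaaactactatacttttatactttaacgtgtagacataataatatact
AT1G17960: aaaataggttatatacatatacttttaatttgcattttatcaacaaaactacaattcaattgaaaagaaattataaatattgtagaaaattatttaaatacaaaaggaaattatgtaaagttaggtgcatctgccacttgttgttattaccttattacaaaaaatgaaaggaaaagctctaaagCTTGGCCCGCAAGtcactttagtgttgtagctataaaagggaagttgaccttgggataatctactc

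The site of NAC044 is CTTGGGGAGCAAG and lies 65 to 53 bases before the start, and that of AT1G17960 is CTTGGCCCGCAAG at nearly the same place, 66 to 54 bases before it. AT2G04050 holds a pair of sites, CTTGATTCCCAAG at 215 to 203 bases and CTTGGTCCCCAAG at 156 to 144 bases. The other higher genes with CTTGNNNNNCAAG were SRO3, NUC-L2, AT5G55150 and the neighbours AT5G53230 and AT5G53240. The windows of these neighbours (chr5:21598598-21598847 and chr5:21601231-21601480, both plus strand, TAIR10.1) share a run of 40 identical bases around the site, shown because both genes rose.
AT5G53230 and AT5G53240, shared run: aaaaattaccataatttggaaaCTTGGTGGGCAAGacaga

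Most tested genes with such a site overlapped Col-0. Of the 182 tested genes with either stricter form, 31 were above Col-0 in every library (17%, against 7.38% of all tested genes). Below Col-0 in every library were 9 of the 182, against 5.77% of all tested genes. The median log2 change of the 182 was 0.06. The 31 include the 10 called higher genes with such a site, after whose calls the motifs were chosen, so the share is raised by that choice. The heat shock element GAANNTTC was in 6 of the 77 windows (7.79%, against 9.42% of tested genes), its inverse TTCNNGAA in 3 (3.9% against 7.44%) and TATAAA in 37 (48.1% against 46%). The CArG box of MADS factors was in 0 of the 77 and in 2.64% of tested genes. A match describes letters only, and binding was not measured.

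The gene with the smallest p was AT5G60250, a RING zinc finger gene, at 0.907, 1.3 and 0.752 CPM in Col-0 and 9.67, 9.42 and 8.41 in spt16-2. Its spt16-2 libraries were close together and far above Col-0 (log2 3.22 ± 0.20, adjusted p = 6.86e-06, edgeR). AT2G18193, a P-loop ATPase gene, stood at 0.322, 0.635 and 0.322 CPM in Col-0 and 9.57, 9.54 and 7.24 in spt16-2, a 20.5-fold difference with no overlap (4.36 ± 0.40, adjusted p = 0.000225). Its neighbour AT2G18190, of the same family, was called too, at 2 counts in Col-0 and 89 in spt16-2, a ratio of 40.4 (95% counting interval 10.9 to 339), but lost its call with any 1 of the 6 libraries left out (adjusted p 0.115 to 0.153). AT2G04050 stood at 0.263, 0.491 and 0.403 CPM in Col-0 and 2.99, 3.75 and 3.03 in spt16-2, and AT1G17960 at 0, 0.116 and 0 CPM against 2.14, 3.19 and 3.38. Both were separated in every library, with log2 changes of 3.07 ± 0.40 (adjusted p = 0.00393) and 6.15 ± 0.84 (adjusted p = 0.00492).

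Some called genes were set beside their families, which were picked after the values were seen. NDB4, an external NAD(P)H dehydrogenase of mitochondria, stood at 0, 0.0577 and 0.161 CPM in Col-0 and 1.03, 1.52 and 1.55 in spt16-2 (4.14 ± 0.67, adjusted p = 0.0158, edgeR). It was the only one called of 6 such dehydrogenases tested, against 0.376% of all tested genes called higher. Of tested genes with a Col-0 mean under 0.1 CPM, as NDB4 has, 7.52% were called. AOX1C, an alternative oxidase, stood at 0.614, 0.520 and 0.886 CPM in Col-0 and 2.14, 2.18 and 3.22 in spt16-2 (1.89 ± 0.37, adjusted p = 0.0453), separated from Col-0 throughout. The main stress-induced member AOX1A overlapped between the groups (33.5 ± 7.80 against 37.5 ± 7.02 CPM, SD, n = 3, adjusted p = 0.882). NDB4 lost its call without Col-0 replicate 2, spt16-2 replicate 3 or the library labelled spt16-2 replicate 2 (adjusted p up to 0.0775), and AOX1C with any 1 of the 6 left out (0.0777 to 0.186).

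Of the heat shock list 1 of 11 tested members rose (against 0.376% of all tested genes) and none fell, with a median of 0.16. It was the small chaperone gene HSP18.2 (AT5G59720), at 2.84, 2.60 and 2.53 CPM in Col-0 and 6.71, 6.38 and 8.09 in spt16-2, with no overlap (1.41 ± 0.19, adjusted p = 0.00411, edgeR). HSP101 and HSFA2 were not called (0.45, adjusted p = 0.514, and 0.16, adjusted p = 0.975). HSP21 and HSP22 had 0 counts in all 6 libraries. AT1G56410, an Hsp70 gene that the annotation names ERD2, had 0 counts in Col-0 and 2.01, 1.89 and 0.911 CPM in spt16-2, at least 57.2-fold higher when Col-0 is set to 3 counts in all 3 libraries together (adjusted p = 0.0152). It kept its call without spt16-2 replicate 3 and lost it without any other library (adjusted p up to 0.075). With AT1G56410 and Hsp70-2, 2 of 15 tested Hsp70 genes rose, against 0.376% of all tested genes. AT1G56410, with 0 counts in Col-0, passed the count filter only through a mutant group where it was higher.

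The strongest case of a gene silent in Col-0 was AT4G18900, a WD40 repeat gene, with 0 counts in the 3 Col-0 libraries and 1.91, 1.72 and 2.84 CPM in spt16-2. Its 250 counts in spt16-2 put it at least 75.6-fold higher (adjusted p = 0.000843, edgeR). AT3G25960, a pyruvate kinase gene, had 0 counts in Col-0 and 1.26, 1.06 and 0.858 CPM in spt16-2, at least 37.5-fold higher. It was not called with any 1 of the 6 libraries left out (adjusted p 0.0725 to 0.135). SRO3, a gene of the RCD1 stress family, had 0 counts in Col-0 and 0.696, 0.589 and 0.616 CPM in spt16-2, at least 22.4-fold higher. It overlaps the tested gene AT1G70430.

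Genes for DUF295 proteins, a plant family of unknown function, were called in 5 of 24 tested members, all higher, against 0.376% of all tested genes. The family was chosen after its values were seen. All 5 were under 0.1 CPM in Col-0, and 7.52% of all tested genes that low were called. A gene with 0 or 1 counts in Col-0 passed the count filter only through a mutant group where it was higher. The neighbours AT5G53230 and AT5G53240 led it. AT5G53230 stood at 0, 0 and 0.134 CPM in Col-0 and 3.35, 3.14 and 2.49 in spt16-2 (60.2-fold, adjusted p = 0.00307, edgeR), and AT5G53240 at 0 counts in Col-0 and 0.671, 1.06 and 0.670 CPM in spt16-2 (at least 28.4-fold). AT1G30170 and AT5G55150 also had 0 counts in Col-0, and AT2G45940 had 1, and AT1G30170 and AT2G45940 each overlap another tested gene. All 5 lay above every Col-0 library, and reads shared between such relatives could be split by the counting. AT5G53230 was called with each library left out, and the other 4 lost their calls with any 1 left out (adjusted p from 0.0579 to 0.192 over the 6 libraries).

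Further called genes, also picked after their values were seen, are annotated with parts in translation or the nucleolus. AT5G40040, for a 60S acidic ribosomal protein, stood at 0.0585, 0.0866 and 0.0537 CPM in Col-0 and 1.6, 1.13 and 1.61 in spt16-2 (4.39 ± 0.66, adjusted p = 0.00957, edgeR). AT3G28500, of the same family, stood at 4.24, 1.93 and 2.1 CPM in Col-0 and 16.7, 10.8 and 13.9 in spt16-2 (2.33 ± 0.30, adjusted p = 0.00393). Both were above Col-0 in every library. AT5G40040 lost its call without Col-0 replicate 1 or 3 (adjusted p up to 0.0626). They were 2 of the 11 tested genes of that family, whose median was −0.04, and 0.376% of all tested genes were called higher. The translation initiation factor genes TIF3C2 and eIF6B were also called, at 1 count in Col-0 against 75 in spt16-2 for TIF3C2 and a 7.25-fold difference for eIF6B, which overlaps the tested gene AT2G39830. TIF3C2 kept its call only without the library labelled spt16-2 replicate 2, and eIF6B lost it with any 1 of the 6 left out (adjusted p 0.0618 to 0.0899). NUC-L2 (AT3G18610), a nucleolin gene, stood at 1.43, 0.779 and 1.40 CPM in Col-0 and 3.2, 3.83 and 4.80 in spt16-2, without overlap (1.71 ± 0.29, adjusted p = 0.0207). It kept its call with spt16-2 replicate 1 left out and lost it with any other of the 6 libraries left out (adjusted p up to 0.0886).

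Other genes that the naming rule took for their size of change were AT1G06030, a sugar kinase gene (0.0374 ± 0.0325 against 1.46 ± 0.457 CPM, SD, n = 3), the uncharacterised AT5G45095 (0.198 ± 0.162 against 3.40 ± 0.306 CPM) and the noncoding RNA AT1G67105 (0.314 ± 0.135 against 5.54 ± 2.87 CPM). Their adjusted p-values in edgeR were 0.0172, 0.00124 and 0.0276. AT1G06030 kept its call without the library labelled spt16-2 replicate 2 and lost it without any other (adjusted p up to 0.0799). AT1G67105 varied among spt16-2 libraries, at 8.85, 3.63 and 4.15 CPM, and was not called with any 1 of the 6 libraries left out (adjusted p 0.0562 to 0.144).

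**Figure D3:**
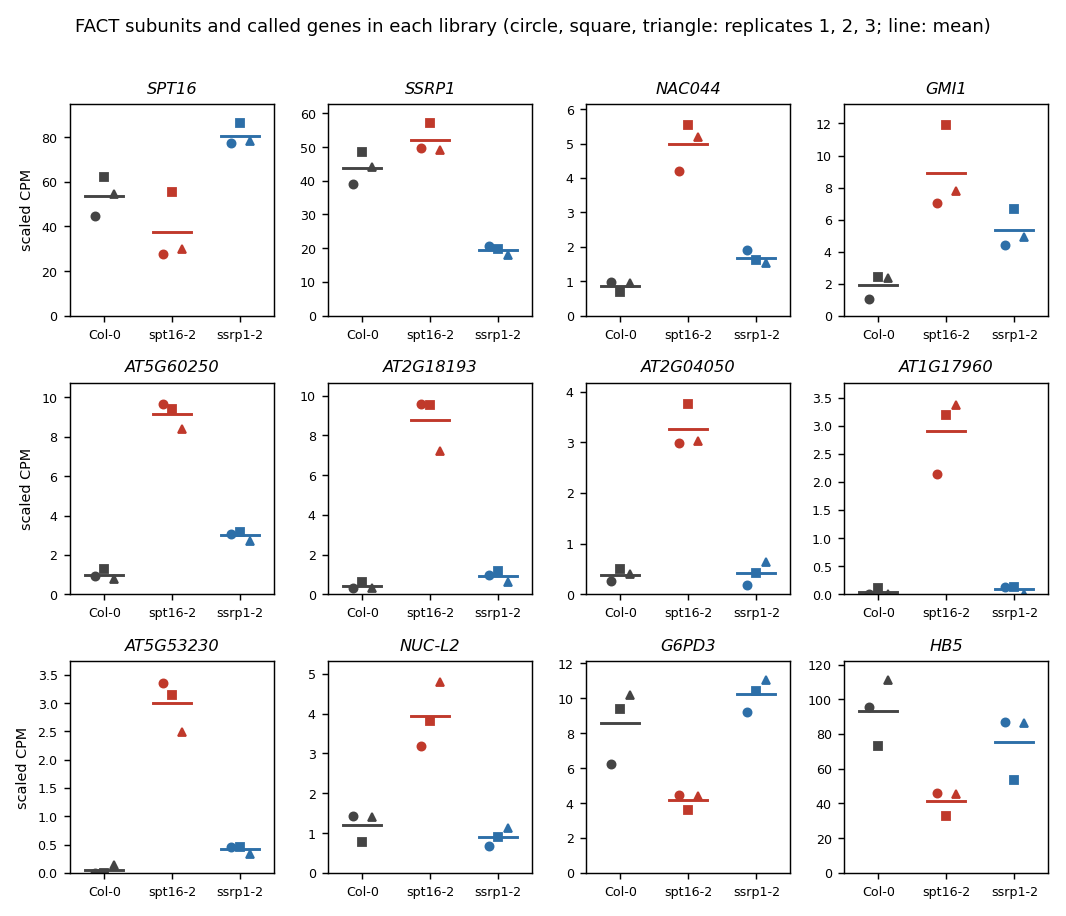
Scaled CPM (y, from 0) of SPT16, SSRP1 and 10 called genes in each library of Col-0, spt16-2 and ssrp1-2 (x), with marker shape for the replicate number and a line at the mean of 3 libraries. SPT16 in spt16-2 replicate 2 (square) lies at 55.4 CPM among the Col-0 libraries. The 10 called genes were called with that library included, so its place beside the other spt16-2 libraries in them is a description.

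The 9 genes that fell included no list member. HB5 (AT5G65310), a homeodomain-leucine zipper factor, had the highest counts of them, at 95.6, 72.9 and 111 CPM in Col-0 and 45.9, 32.6 and 45.3 in spt16-2, with no overlap (−1.17 ± 0.20, adjusted p = 0.0253, edgeR). G6PD3 (AT1G24280), a plastid glucose-6-phosphate dehydrogenase, stood at 6.23, 9.41 and 10.2 CPM in Col-0 and 4.44, 3.61 and 4.40 in spt16-2 (−1.05 ± 0.18, adjusted p = 0.0244), and it overlaps the tested gene AT1G24290. The noncoding RNAs AT2G01422 and AT3G05955 fell most among those with a mean of at least 50 counts per Col-0 library. AT2G01422 stood at 1.52, 1.85 and 12.0 CPM in Col-0 and 0.155, 0 and 0.107 in spt16-2, where 1 Col-0 library was far above the others (−5.85 ± 0.98, adjusted p = 0.0271). AT3G05955 stood at 12.6, 8.46 and 9 CPM in Col-0 and 1.19, 1.03 and 2.97 in spt16-2 (adjusted p = 0.0347, or 0.0718 with the replicate block).

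The remaining lower genes were AT4G21445, AT3G10405, AGL87, AT5G02710 and the noncoding RNA AT2G05705, with log2 changes of −0.87, −0.78, −0.74, −0.54 and −5.15. AT3G10405 overlaps the tested gene AT3G10390, which is FLD, a flowering-time gene on the list of FLC regulators. With each of the 6 libraries left out in turn 24 of the 77 higher genes stayed called throughout. None of the 9 lower genes was so called. The count of lower genes was 0 without spt16-2 replicate 1 and 0 with the 6 libraries compared alone. It was 1 without the library labelled spt16-2 replicate 2, and that gene was SPT16, not 1 of the 9. With replicate numbers as a block it was 25. The block added IMA3 and PYE of the iron deficiency list (−2.2, adjusted p = 0.0122, and −0.85, adjusted p = 0.0233) and IAA17 of the auxin list (−0.63, adjusted p = 0.0451). Of lower genes with the next smallest p, UBC11 (adjusted p = 0.0508) and AT4G16146 were called with the block (adjusted p = 0.0382 and 0.0025), and AT2G17033 and AT4G33540 in neither fit.

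Most lists held no called gene. Over 32 lists with 484 distinct genes, not all of them tested, 9 genes rose and none fell, all in the 4 lists given above. Of all tested genes 0.376% were called higher and 0.044% lower. Of the iron deficiency genes 0 of 14 tested were called, with a median of −0.98. IMA1, a peptide that signals low iron, stood at 3.75, 2.71 and 2.23 CPM in Col-0 and 1.39, 0.858 and 0.536 in spt16-2, separated but not called (adjusted p = 0.611, edgeR). The jasmonate and defensin list (0 of 20, median −0.72) summed to 1079 to 3628 CPM in Col-0 and 1005 to 1058 in spt16-2, and the list of CBF, touch and rapid response genes (0 of 16, median −0.55) to 169.6 to 666.2 and 182.3 to 617.7. Nuclear photosynthesis genes were not called (0 of 32, median −0.19), nor were core histones (0 of 17, median −0.08), other histone chaperones (0 of 12, median −0.01), H2A.Z and its remodellers (0 of 12, median 0.08), subunits of RNA polymerase II (0 of 14, median 0.01) or cell cycle genes (0 of 27, median 0.20).

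**Figure D4:**
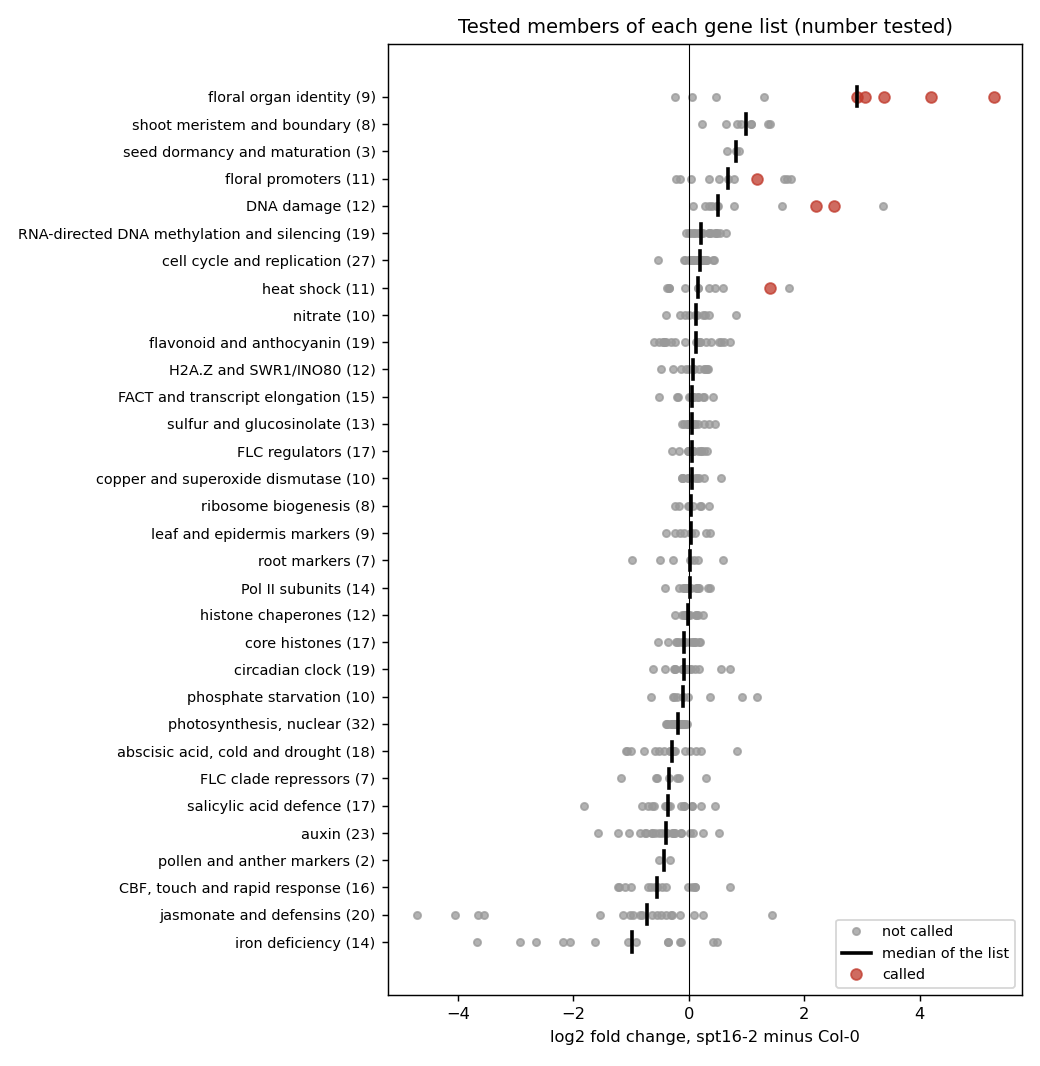
Log2 fold change of spt16-2 over Col-0 (x) of each tested member of 32 gene lists (y, number tested in brackets), with called genes in red and the list median as a bar. Red points fall in 4 lists, with 5 of them among the floral organ identity genes.

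Against ssrp1-2, the mutant of the other FACT subunit, spt16-2 differed in few genes. The direct contrast called 14 of 20471 genes (0.0684%), 11 higher in spt16-2 and 3 lower, with 619 at an unadjusted p under 0.05. With any 1 of the 6 libraries left out, 3 to 6 were higher and 1 was lower. SSRP1, AT2G18193 and AT5G60250 were called in each of these. SSRP1 led it, at 20.7, 19.7 and 17.9 CPM in ssrp1-2, below every library of spt16-2 (1.42 ± 0.11, adjusted p = 0.000143, edgeR). SSRP1 overlaps the tested gene AT3G28740. SPT16 stood at 77.6, 86.4 and 78.3 CPM in ssrp1-2, above every spt16-2 library and not called (−1.1 ± 0.22, adjusted p = 0.166).

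Both contrasts use the same spt16-2 libraries, so their results are not independent. Of the 77 genes higher than in Col-0, 7 were also higher in spt16-2 than in ssrp1-2. They were AT2G18193 (0.953, 1.18 and 0.605 CPM in ssrp1-2, log2 difference 3.27 ± 0.37, adjusted p = 0.00369, edgeR), AT5G60250, AT2G04050, NAC044, NUC-L2, AT1G17960 and AT1G56410. NAC044 stood at 1.91, 1.62 and 1.54 CPM in ssrp1-2, below every spt16-2 library (1.56 ± 0.22, adjusted p = 0.0157). NUC-L2 stood at 0.680, 0.903 and 1.13 CPM in ssrp1-2 (2.11 ± 0.30, adjusted p = 0.0157), and AT2G04050 at 0.191, 0.411 and 0.630 CPM (2.97 ± 0.40, adjusted p = 0.0134). AT1G17960 stood at 0.136, 0.137 and 0 CPM in ssrp1-2 (4.98 ± 0.74, adjusted p = 0.0209), and AT1G56410 had 0 counts there as in Col-0. In each of these the ssrp1-2 libraries lay below all of spt16-2. With 1 library left out, NAC044 and NUC-L2 stayed called without spt16-2 replicate 1 alone (adjusted p up to 0.123 and 0.105), AT2G04050 without spt16-2 replicate 1 or ssrp1-2 replicate 3 alone (up to 0.0885), and AT1G17960 and AT1G56410 in none. Of the 11 genes higher than in ssrp1-2, 5 held CTTGNNNNNCAAG or CTTGNNNNNCACG in the 250 bases upstream, against 0.895% of tested genes, with motifs chosen after these genes were known.

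The flower genes were not called in the direct contrast. Both comparisons with Col-0 share the Col-0 libraries, so their values stand side by side here. SEP3 was at 7.95, 7.12 and 9.73 CPM in ssrp1-2, below each spt16-2 library, and SEP2 at 2.94, 2.71 and 4.99 CPM, above each of them. The direct log2 differences were 0.75 ± 0.25 for SEP3 and −1.16 ± 0.43 for SEP2, each with an adjusted p of 1 in edgeR. AP3 was at 2.2, 2.57 and 3.60 CPM in ssrp1-2, overlapping spt16-2. AP1 was at 3.35, 4.35 and 4.23 CPM in ssrp1-2, above each spt16-2 library. In ssrp1-2 against Col-0, where 114 genes (0.557%) were called, the adjusted p was 0.000778 for SEP3, 0.000484 for SEP2, 0.00344 for AP3, 0.0146 for PI, 0.00362 for FUL and 0.00291 for AP1, all called and higher, and 0.0561 for SEP1. Other named genes called and higher in ssrp1-2 than in Col-0 included GMI1 (adjusted p = 0.0434, edgeR), HSP18.2 (0.00922), Hsp70-2 (0.00801) and AT5G60250 (0.00344). AT4G18900 (0.0109), SWEET10 (0.00536) and AT3G28500 (0.000484) were too. Among those not called there were NAC044 (0.108), AT2G18193 (0.396), NUC-L2 (0.759), AT1G17960 (0.827) and AT2G04050 (0.981). These values do not show that the mutants act alike. Of all 77 higher genes, 45 were above every ssrp1-2 library, 9 were below every one and 23 overlapped, against 4.52% above and 3.98% below over all tested genes. The 77 were chosen for high values in the same spt16-2 libraries, so an excess above ssrp1-2 is set in part by that choice.

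The other direct calls were AT1G52100, AT2G01008 and AT3G41762 (higher) and AT3G26460, G6PD3 and UBC11 (lower). G6PD3 stood at 9.23, 10.4 and 11 CPM in ssrp1-2 (−1.3 ± 0.18, adjusted p = 0.0157, edgeR) and UBC11, a ubiquitin-conjugating enzyme, at 29.8, 28.8 and 34.6 CPM against 15.1, 17.5 and 15.9 in spt16-2 (−0.94 ± 0.14, adjusted p = 0.0209). Both were below ssrp1-2 in every library, and both lost the call with any 1 library left out (adjusted p 0.0587 to 0.216). AT3G26460 rose in ssrp1-2 to 6.53, 9.14 and 4.79 CPM and stood at 1.57, 0.907 and 0.831 CPM in spt16-2 (−2.62 ± 0.32, adjusted p = 0.00702), and was not called without spt16-2 replicate 3 or the library labelled spt16-2 replicate 2 (adjusted p up to 0.0645). AT1G52100 and AT2G01008 were not called with any 1 library left out. With the replicate block 13 genes were higher and 7 lower than in ssrp1-2.

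AT3G41762 and AT2G01008 share sequence and lie beside rRNA genes. In TAIR10.1 they lie 811 and 532 bases before the rRNA genes AT3G41768 and AT2G01010, and 82.7% of the 30-base words of AT3G41762 occur in AT2G01008 on either strand and 59.4% of those of AT2G01008 in AT3G41762, so part of their counts could be split between them. AT3G41762 stood at 0.817, 0.958 and 0.806 CPM in ssrp1-2, 10.8, 4.64 and 6.46 CPM in spt16-2 and 3.92, 1.96 and 0.940 CPM in Col-0. It was above every ssrp1-2 and Col-0 library (3.08 ± 0.46 against ssrp1-2, adjusted p = 0.0209, edgeR; 1.68 against Col-0, adjusted p = 0.155), and stayed called against ssrp1-2 only without the library labelled spt16-2 replicate 2 (adjusted p up to 0.227). The rRNA share itself was 0.225% to 0.323% of counts in spt16-2 and 0.255% to 0.417% in ssrp1-2, and the part of rRNA removal in this result was not tested.

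The called genes were spread over all 5 chromosomes, with 22, 12, 14, 7 and 22 higher genes on chromosomes 1 to 5. Tested genes on these numbered 5361, 3087, 4011, 3127 and 4745. The 96 tested genes next to a higher gene that were not higher themselves had a median log2 change of 0.06. Higher genes were left out of these 96 by definition, so the count of 0 called genes among them says little about neighbours. Higher genes lay next to each other in the pairs AT2G18190 with AT2G18193 and AT5G53230 with AT5G53240. Of the 86 called genes 8 overlapped another tested gene, which 22.7% of tested genes do, and 4 were not protein coding, against 2.01% of tested genes. Over all genes the change rose with exonic length, from a median of −0.09 in the shortest of 5 equal classes of genes to 0.10 in the longest, and the 77 higher genes had a median exonic length of 1535 bases against 1759 for all tested genes.

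**Figure D5:**
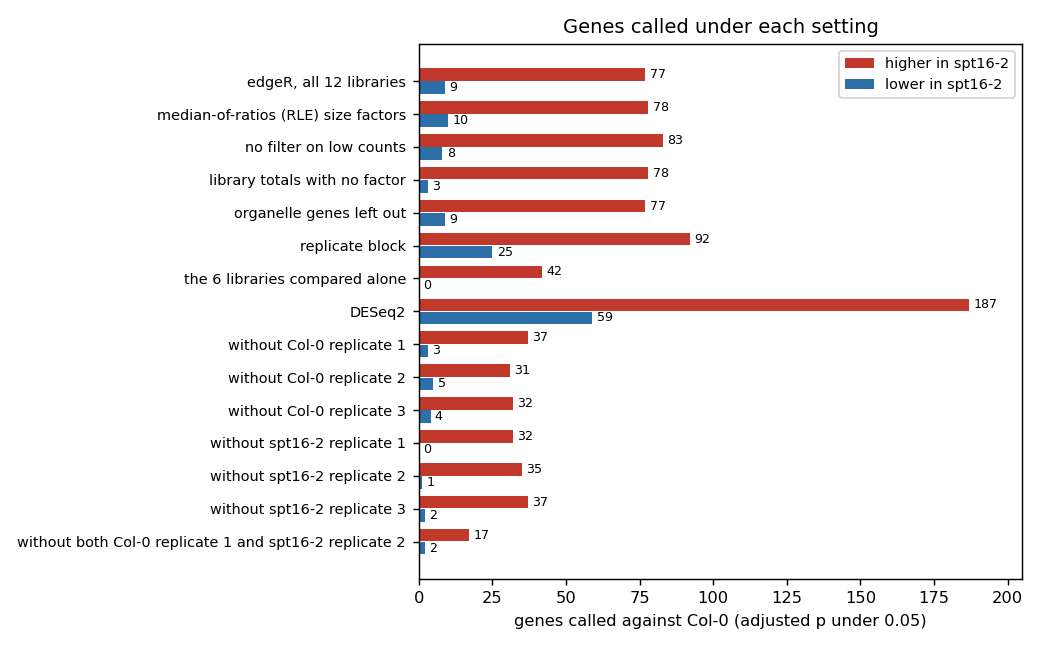
Genes called higher (red) and lower (blue) in spt16-2 than in Col-0 (x, number of genes) under the main test and 14 other settings (y). Higher genes outnumber lower ones under every setting shown, with counts from 17 to 187 higher and 0 to 59 lower.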

How the data were processed

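RNA was sequenced from 12 seedling libraries, 3 per genotype. The authors deposited whole-number counts per gene, made with fastp 0.23.4 and HISAT2 2.2.1 on TAIR10, by the tools that the submitters' processing notes name. How reads were counted, and with what strand setting, is not given in the sources used here. A second deposited table, named TPM, was not used because its columns have different sums.

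Counts were tested with edgeR 4.0.16 (R 4.3.3, limma 3.58.1), with TMM scaling, low genes removed by filterByExpr (minimum count 10), and 1 robust quasi-likelihood model per gene across the 4 genotypes. A gene is called where its Benjamini-Hochberg adjusted p, taken over 20471 genes, is under 0.05. The script was tested on simulated data. Levels are TMM-scaled CPM. With 0 counts in a group, folds are lower bounds that set the group's sum to 3 counts, and ratios on 1 to 3 counts have 95% counting intervals, both covering counting error only. DESeq2 1.42.0 was an alternative, with 13 others. Gene names, lengths and upstream bases came from RefSeq's TAIR10.1 annotation by locus tag (32548 loci matched, 285 organelle loci did not).

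Named genes were SPT16 and SSRP1, the 12 largest called changes each way among genes whose higher group averaged 50 counts per library, without overlap (filled up by p), up to 4 called genes per list, and the 5 largest each way against ssrp1-2. The members, lists and tests were chosen with earlier results of these data known. Same-numbered spt16-2 and Col-0 libraries deviated together from their group means (correlations over genes 0.192, 0.457 and 0.465; other pairs −0.496 to 0.0200), so a fit with the replicate number as a block is given where it changes a call.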

Additional observations from a re-analysis of the deposited data

How the results depend on the processing

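Counts higher and lower than in Col-0 were 77 and 9. They were 42 and 0 with the 6 libraries compared alone, 187 and 59 with DESeq2, which called all 86, and 17 and 2 without both Col-0 replicate 1 and spt16-2 replicate 2. With library totals they were 78 and 3, and the median of all genes shifted to 0.11. With the replicate block they were 92 and 25, with 81 of the 86 calls shared. Leaving out 1 library gave 31 to 37 higher and 0 to 5 lower. Median-of-ratios factors, no filter and leaving out organelle genes gave 77 to 83 higher and 8 to 10 lower. Of the higher genes 14 were called under all 14 alternatives and 24 with each of the 6 libraries left out, and of the lower genes 0 under either. Against ssrp1-2, counts of 11 higher and 3 lower became 17 and 5 with the 6 libraries alone, 39 and 15 with DESeq2, 1 lower with library totals, 7 lower with the block, and 3 to 6 higher and 1 lower with 1 library left out. SPT16 was called at −0.90 (adjusted p = 0.0294, edgeR) without spt16-2 replicate 2 and at −1.02 (adjusted p = 0.0159) without that library and Col-0 replicate 1. Its other values with 1 library left out were −0.63 to −0.33. With 1 library fewer, fewer samples carried the test; for the other moves the cause was not tested. Apart from the calls named beside their results, the block ended those of AT3G05955 (adjusted p = 0.0718), ACT4, AT5G55150, RXF26 and AT2G28010. No count and no called gene named here changed direction. Without spt16-2 replicate 2 the medians of core histones (0.04) and FLC regulators (−0.01) and the value of SOG1 (−0.07), none of them called, changed sign. With 3 libraries per group and medians under 1 CPM, changes in rare transcripts were read from few counts.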
